A study of Mus musculus with 18 samples.

Results

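Gene expression was compared between the control lungs of 3 mouse lines, which were 9 of the 18 whole-lung RNA-seq samples of the study. The members were chosen from their labels alone and were every library labelled as a control at 14.5 days post coitus (dpc), 3 in each line. All 9 libraries came from lungs that carried ShhCre, a Cre recombinase inserted at the Shh locus that is expressed in the lung epithelium and takes the place of a working copy of Shh. The control genotypes were Rptor f/+; ShhCre/+, Tfam f/+; ShhCre/+ and Cox10 f/+; ShhCre/+, so that each line also carried a single floxed copy of its own target gene. The paper reports that ShhCre turns a floxed copy into a null copy in the lung epithelium. The 3 groups are called Rptor, Tfam and Cox10 control lungs here. The 9 deficient lungs, with 2 floxed copies and the same ShhCre allele, were used to ask whether a difference between lines was seen again and, in an alternative fit of all 18 samples, as a further estimate of the spread. None of the controls was free of Cre, and none was compared with another control by the study's design. The methods describe controls as littermates of the deficient embryos. Line therefore coincides with litter, deposited table and stock of origin, and with whatever extraction or sequencing batch a line had. Genotype, batch and genetic background cannot be told apart in any comparison below. The labels do not say whether the samples of a group came from separate litters, and p-values measure the spread between these samples.

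At this stage the mouse lung is still branching, with SOX9-expressing tips that give rise to SOX2-expressing airways behind them. Distal epithelium begins to express surfactant protein C (Sftpc) early and raises it as the lung grows, and secretoglobin 3A2 (Scgb3a2) appears in the young airway epithelium before other secretory genes. The blood in the organ carries a clock of its own. The first red cells, from the yolk sac, contain embryonic globins, and red cells from the fetal liver that carry adult-type globins replace them over the following days. These measures were used to describe how far the lungs of each line had progressed, and they do not by themselves measure the age of an embryo.

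In the 9 control libraries the deposited values added up to 28069800 to 29554300 normalised reads, 17667 to 17873 genes had a value above 0, and the 10 highest genes held 3.71% to 4.29% of a total. Each library was rescaled to the same total before comparison. Across genes, log2 values of replicates correlated at 0.988 to 0.995 and those of different lines at 0.961 to 0.983. Every pair of replicates differed by more than sampling noise, with a chi-square of 3.95 to 17.7 for each gene against 24.9 to 125 for pairs of different lines, and each library was counted as a sample of its own. The sex-linked genes set 3 libraries apart. Xist, which is expressed from the inactive X chromosome, and Ddx3y, a gene of the Y chromosome, were both well above 0 in Tfam control replicate 2 (5425 and 1197 normalised reads), Tfam control replicate 3 (22395 and 655) and Cox10 control replicate 3 (17707 and 902). Of the other 6 libraries, 4 had high Xist with Ddx3y between 0 and 21, and 2 had high Ddx3y with Xist of at most 31.4. Such a pair of values is not that of a single male or female embryo, and the labels do not say whether a library held lungs of more than one embryo. The methods describe the combining of lungs for an earlier stage only. Whether these 3 libraries are single-embryo replicates was not tested. Of 322 called differences of named genes, 87 did not pass without them and 1 turned sign, and those that bear most on a result are given both ways. Leaving them out keeps 3 Rptor, 1 Tfam and 2 Cox10 lungs, so that comparisons with Tfam lungs then rest on a single lung, assumed to vary like the other groups, and a call lost there says little about the size of the difference.

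**Figure D1:**
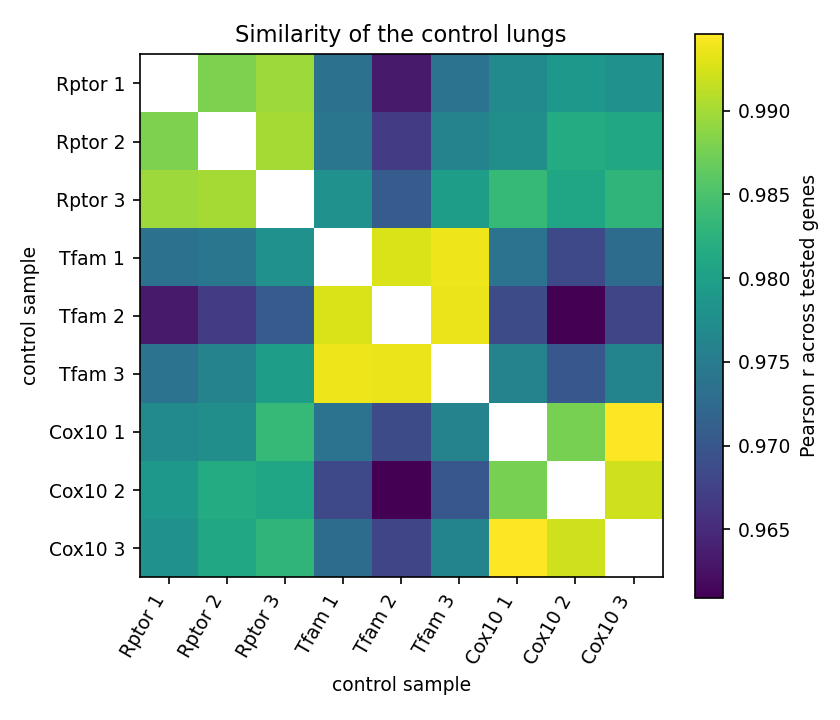
Pearson correlation across tested genes on the log2(value + 1) scale for each pair of the 9 control lungs, with lines and replicates on both axes and the colour giving r. The 3 blocks along the diagonal, which hold the replicates, reach 0.988 to 0.995, and the pairs of a Tfam lung with a lung of another line hold the lowest value, 0.961.

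To ask how far the controls differed, the 3 groups were fitted together in limma for 15207 genes. At least one group differed for 10441 genes (68.7%; limma F test, adjusted p below 0.05). Cox10 and Rptor control lungs were the nearest, with 3634 genes past the threshold (23.9%), 1647 higher (10.8%) and 1987 lower (13.1%) in Cox10 lungs. Between Tfam and Rptor control lungs 8570 genes passed (56.4%), 4285 higher (28.2%) and 4285 lower (28.2%) in Tfam lungs. Between Cox10 and Tfam control lungs 9206 genes passed (60.5%), 4533 higher (29.8%) and 4673 lower (30.7%) in Cox10 lungs. Most of these differences were small. The median absolute log2 difference was 0.30 for Tfam minus Rptor, 0.15 for Cox10 minus Rptor and 0.34 for Cox10 minus Tfam, and 934, 545 and 1201 genes passed with a difference of at least 1 on the log2 scale. The number for Cox10 minus Rptor was 2399 without Cox10 control replicate 3, and the 3 numbers were 5833, 2486 and 6404 without the 3 libraries that had both Xist and Y-linked reads, where the first and the last number compare with a single Tfam lung.

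A line was said to stand apart for a gene when it passed the threshold against both of the others in the same direction. Rptor control lungs stood apart for 520 genes that were higher (3.42%) and 842 that were lower (5.54%). Tfam control lungs stood apart for 3184 genes that were higher (20.9%) and 3494 that were lower (23%), and Cox10 control lungs for 797 that were higher (5.24%) and 1471 that were lower (9.67%). The log2 differences of Tfam lungs went with base composition, with a Spearman rho against GC content across 15076 genes of 0.32 for Tfam minus Rptor and -0.275 for Cox10 minus Tfam, against 0.048 for Cox10 minus Rptor. After a correction for GC content and gene length 8439, 4044 and 9256 genes passed for Tfam minus Rptor, Cox10 minus Rptor and Cox10 minus Tfam. The part of base composition in the differences was not otherwise tested.

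The globin genes were examined first. Beta-s, the adult-type beta globin of this annotation (Hbb-bs in RefSeq), had 19631, 27699 and 26771 normalised reads in Rptor control lungs, 21816, 11903 and 12656 in Tfam control lungs and 4509, 4262 and 4739 in Cox10 control lungs. The Cox10 lungs were below all others, while Tfam control replicate 1 lay within the range of the Rptor lungs. The log2 difference of Cox10 lungs was -2.44 from Rptor lungs (SE 0.19; limma adjusted p = 3.76e-06) and -1.72 from Tfam lungs (SE 0.19; limma adjusted p = 8.21e-06). Tfam lungs were lower than Rptor lungs by a log2 difference of -0.72 (SE 0.19; limma adjusted p = 0.00637), which was -0.16 (limma adjusted p = 0.48) without the 3 libraries with Xist and Y-linked reads, which leaves Tfam control replicate 1 alone in its group, -0.67 (limma adjusted p = 0.070) with the level of heart muscle genes as a covariate and not past the threshold with all 18 samples in the fit (limma adjusted p = 0.10).

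Embryonic globins behaved differently from each other. Hbb-y, the embryonic beta-type globin, had 29194, 30770 and 39496 normalised reads in Rptor, 32512, 30344 and 37270 in Tfam and 31991, 30586 and 32390 in Cox10 control lungs. These ranges overlapped in all 3 lines (limma F test, adjusted p = 0.802). Hba-x, the embryonic alpha-type globin, had 5124, 4451 and 7024 in Rptor, 19372, 17489 and 16688 in Tfam and 4607, 4327 and 4661 in Cox10 control lungs. Every Tfam lung was above every other lung, by a log2 difference of 1.71 from Rptor lungs (SE 0.13; limma adjusted p = 6.47e-07), whereas Cox10 and Rptor lungs did not pass the threshold (log2 difference -0.26, SE 0.13; limma adjusted p = 0.156). Hbb-bh1, an early embryonic beta-type globin, ranged from 269 to 650 over the 9 lungs and was 0.83 lower in Cox10 than in Tfam lungs on the log2 scale (limma adjusted p = 0.000934). Hba-a1, Hba-a2, Hbb-b1 and Hbb-b2 were listed at 0 to 1.97 in every control lung. They are near-identical copies of each other or of Beta-s, and how reads were divided among such copies is not stated, so adult alpha globin could not be followed and the value of Beta-s is uncertain to that extent.

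The stretches of 100 bases before the transcription start of the adult-type beta globin, the embryonic beta-type globin that did not differ and the embryonic alpha-type globin that did are shown because these genes mark opposite sides of the switch (RefSeq, GRCm38.p6, each on the strand of its gene, 5′ to 3′). Capitals mark the letters CACCC, the letters CCAAT and the letters TATAA, each searched on both strands.

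Hbb-bs: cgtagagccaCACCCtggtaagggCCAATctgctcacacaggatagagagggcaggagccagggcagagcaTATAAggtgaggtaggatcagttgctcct

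Hbb-y: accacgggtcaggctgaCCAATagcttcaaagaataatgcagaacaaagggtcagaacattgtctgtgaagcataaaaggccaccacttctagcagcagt

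Hba-x: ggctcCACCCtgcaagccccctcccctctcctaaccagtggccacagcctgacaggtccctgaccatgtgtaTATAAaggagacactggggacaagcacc

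They lie at chr7:103827929-103828028 (minus strand), chr7:103853208-103853307 (minus strand) and chr11:32276500-32276599 (plus strand). Hbb-bs held all 3 sets of letters, CACCC from base -90, CCAAT from base -76 and TATAA from base -29 relative to the start. Hbb-y held CCAAT alone, from base -83, and Hba-x held CACCC from base -95 and TATAA from base -28. Of 32851 promoters in the same window, 27.2% held CACCC, 18.9% CCAAT and 10.2% TATAA, so none of these letters is rare.

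The log2 ratio of later to embryonic globins was -0.66 ± 0.26 in Rptor, -1.80 ± 0.46 in Tfam and -3.02 ± 0.035 in Cox10 control lungs (SD, n = 3 each; exact permutation test over the 3 groups, two-sided, p = 0.003571, the smallest that 1680 arrangements allow). As a plain ratio it was 0.567, 0.778 and 0.569 in Rptor lungs, 0.416, 0.246 and 0.232 in Tfam lungs and 0.122, 0.121 and 0.127 in Cox10 lungs. The groups did not overlap. The later side of the ratio was in effect Beta-s alone, since the 4 other later globins were near 0 and Hbb-bt was not listed. Hba-x, on the embryonic side, had no adult alpha globin to set against it. Each pair of groups had an exact permutation p of 0.1, the smallest that 3 samples against 3 allow. With beta-type globins alone the log2 ratios were -0.45 ± 0.24, -1.19 ± 0.52 and -2.83 ± 0.036 (SD, n = 3 each). The order of Cox10 below Tfam below Rptor was the same, and the step from Rptor to Tfam was smaller, -0.74 in place of -1.13. This step rested on Tfam control replicates 2 and 3. Without the 3 libraries with Xist and Y-linked reads it was -0.60, and -0.16 with beta-type globins alone, where the single Tfam lung left was at -0.603 and the lowest Rptor lung at -0.589. The difference between Cox10 and Rptor lungs was then -2.37, and -2.40 with beta-type globins alone.

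**Figure D2:**
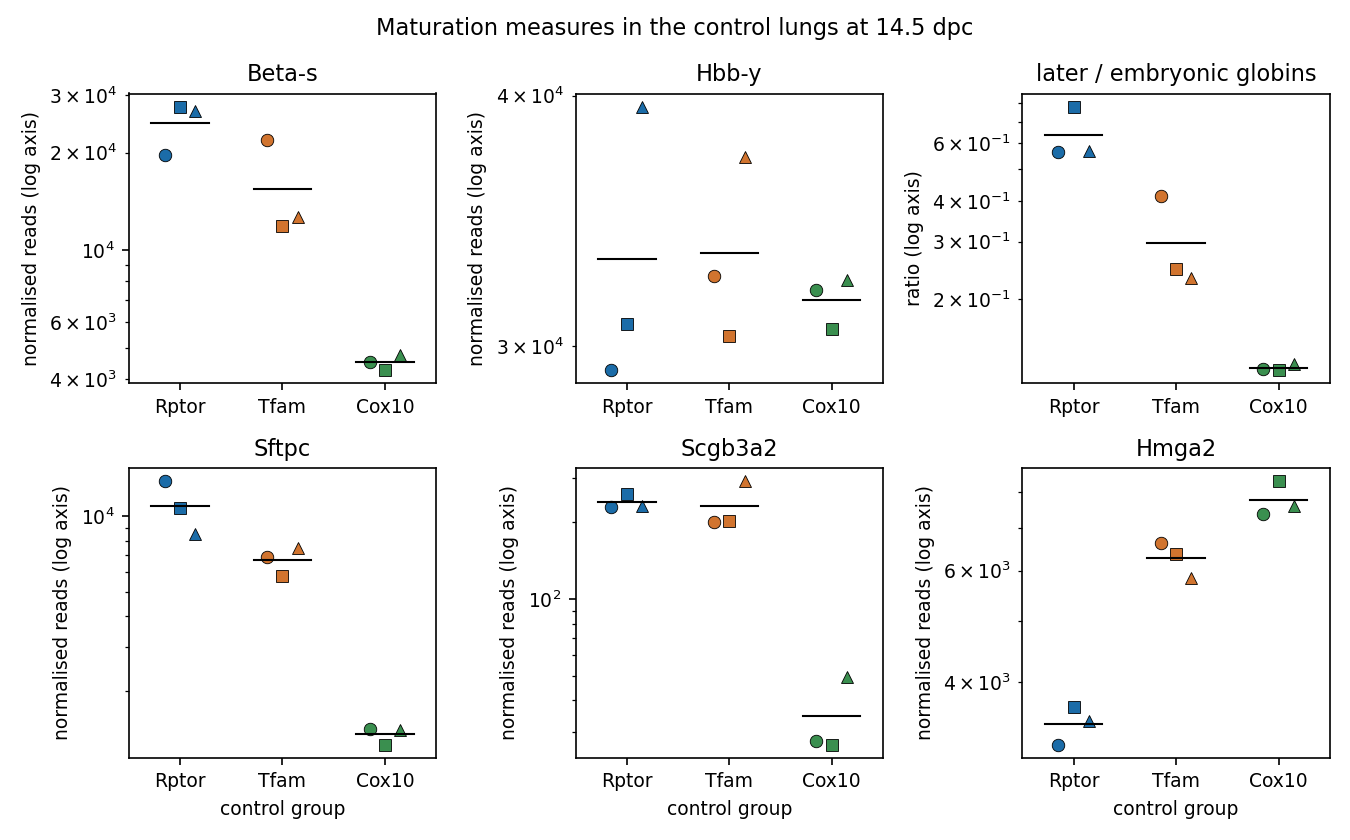
Normalised reads (log axis) of Beta-s, Hbb-y, Sftpc, Scgb3a2 and Hmga2, and the ratio of later to embryonic globins (log axis), in each control lung, with replicates 1, 2 and 3 as circle, square and triangle and the group mean as a line. Cox10 lungs are lowest for Beta-s, the ratio, Sftpc and Scgb3a2 and highest for Hmga2, while Hbb-y overlaps in all 3 lines.

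Sftpc, which encodes the surfactant protein of distal epithelium, had 13838, 10807 and 8501 normalised reads in Rptor control lungs, 6909, 5790 and 7450 in Tfam control lungs and 1409, 1218 and 1400 in Cox10 control lungs. No group overlapped with another (exact permutation test over the 3 groups, two-sided, p = 0.003571). Cox10 lungs were lower than Rptor lungs by a log2 difference of -3.02 (SE 0.14; limma adjusted p = 6.28e-08) and than Tfam lungs by -2.32 (SE 0.14; limma adjusted p = 1.24e-07). Tfam lungs were lower than Rptor lungs by -0.70 (SE 0.14; limma adjusted p = 0.00122), which did not pass with all 18 samples in the fit (limma adjusted p = 0.349). The levels are of whole lungs, in which fewer epithelial cells and less Sftpc RNA per cell cannot be told apart. Relative to the mean log2 value of 16 genes of the whole epithelium, Sftpc differed by -2.63 between Cox10 and Rptor lungs and by -1.82 between Cox10 and Tfam lungs, with the same exact p over the 3 groups.

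Scgb3a2 had 230, 259 and 231 normalised reads in Rptor control lungs, 201, 202 and 290 in Tfam control lungs and 27.5, 26.7 and 49.3 in Cox10 control lungs. Rptor and Tfam lungs overlapped (log2 difference -0.07, SE 0.22; limma adjusted p = 0.798), and every Cox10 lung was below them. The log2 difference of Cox10 lungs was -2.82 from Rptor lungs (SE 0.22; limma adjusted p = 3.81e-06) and -2.74 from Tfam lungs (SE 0.22; limma adjusted p = 6.65e-07). Relative to the whole epithelium it was -2.43 and -2.24. The calls of Sftpc and Scgb3a2 in Cox10 lungs against both other lines were kept under every other setting run.

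Whether the 3 measures also went together among lungs of the same line was asked after subtracting the mean of each line. Over the 9 lungs the Pearson r was 0.054 for the globin ratio and Sftpc, -0.13 for the globin ratio and Scgb3a2, and 0.28 for Sftpc and Scgb3a2. Exact permutation within lines (two-sided, 3 pairs of measures) gave p of 0.824, 0.917 and 0.338, all 0.917 after Benjamini-Hochberg adjustment. The Spearman rho were -0.10, -0.12 and 0.20 (exact permutation p = 0.806, 0.866 and 0.551, all 0.866 adjusted). Without the 2 lungs farthest from the median the r were -0.036, -0.051 and 0.55. No relation within lines was detectable with 3 lungs in each, and none is shown to be absent. No correlation over the pooled lungs is given, since they fall into separate groups.

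The other genes of distal and airway epithelium were read from lists, whose counts stand against the shares of all genes. These were 28.2% higher and 28.2% lower for Tfam minus Rptor, 10.8% and 13.1% for Cox10 minus Rptor, and 29.8% and 30.7% for Cox10 minus Tfam. Of 9 tested genes of surfactant and type 2 cells, 8 were lower in Cox10 than in Rptor control lungs and 8 lower than in Tfam control lungs, with a median log2 difference of -1.34 and -2.04 against 0.0077 and -0.014 over all genes tested. None was higher. Without the 3 libraries with Xist and Y-linked reads the numbers were 8 and 6. Muc1, an epithelial mucin, had 1061, 1230 and 1031 normalised reads in Rptor, 2880, 2542 and 2218 in Tfam and 219, 223 and 224 in Cox10 control lungs, a log2 difference of -3.51 between Cox10 and Tfam lungs (SE 0.094; limma adjusted p = 8.46e-10). Sftpb, a hydrophobic surfactant protein, had 834, 1042 and 793, then 1809, 2307 and 1973, then 357, 406 and 375 in the same order. Muc1 and Sftpb were therefore highest in Tfam lungs, whereas Sftpc was highest in Rptor lungs, and between these 2 lines 3 genes of the list were higher and 2 lower in Tfam lungs. Sftpa1, another surfactant protein, had 232, 219 and 193 in Rptor, 233, 221 and 227 in Tfam and 173, 188 and 177 in Cox10 lungs, and Cox10 minus Rptor did not pass (log2 difference -0.25; limma adjusted p = 0.0889). Sftpd, a later member of the group, was listed at 0 to 4.93 in every lung and was not tested.

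Airway secretory genes had the largest median difference among the epithelial lists. All 6 tested genes were lower in Cox10 than in Rptor lungs (median log2 difference -3.00) and 5 of 6 lower than in Tfam lungs (median -3.26), and 1 of 6 differed between Tfam and Rptor lungs. Cyp2f2, a cytochrome P450 of club cells, had 90.6, 158 and 56.6 normalised reads in Rptor, 177, 397 and 253 in Tfam and 3.93, 0.99 and 2.96 in Cox10 control lungs. Cbr2, a carbonyl reductase of the same cells, had 60.1, 84.3 and 43.0, then 84.9, 140 and 96.1, then 8.85, 0.99 and 3.94. The Cox10 values are near the value of single reads, and the log2 differences of -4.80 (SE 0.42; limma adjusted p = 8.41e-06) and -3.74 (SE 0.47; limma adjusted p = 0.000142) from Rptor lungs depend on the pseudocount of 1. Only 3 of the 6 genes had a mean of at least 50, and 4 were lower in Cox10 than in Rptor lungs without the 3 libraries with Xist and Y-linked reads. Scgb1a1 and Scgb3a1, secretory products of mature club cells, were listed at 0 to 2.10 in all lines, so that no line had reached their expression at this depth.

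Of 9 type 1 cell genes, 6 were lower in Cox10 than in Rptor lungs (median log2 difference -1.15; 13.1% of all genes were lower), and 6 were lower and 2 higher than in Tfam lungs (median -0.79; 30.7% and 29.8% of all genes). Ager, a receptor of flat alveolar cells, had 842, 976 and 799 normalised reads in Rptor, 1164, 1311 and 1267 in Tfam and 418, 371 and 366 in Cox10 control lungs. Hopx, a homeodomain cofactor of these cells, had 410, 460 and 405, then 243, 257 and 320, then 156, 142 and 173. The lines did not overlap for either gene, and their order differed between Rptor and Tfam lungs in the same way as that of Sftpb and Sftpc. Cldn18 and Emp2, a tight junction and a membrane protein, differed by -1.22 and -1.17 between Cox10 and Rptor lungs on the log2 scale (limma adjusted p 9.55e-07 and 6.44e-07).

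Genes of the whole epithelium differed less. Of 16, 13 were lower in Cox10 than in Rptor lungs (median log2 difference -0.34), and 12 were lower and 1 higher than in Tfam lungs (median -0.42). After the correction for GC content and gene length 13 and 9 were lower. Nkx2-1, the transcription factor that defines lung epithelium, had 4470, 4529 and 4486 normalised reads in Rptor, 6340, 6201 and 6344 in Tfam and 3521, 3383 and 3341 in Cox10 control lungs. Its log2 difference of -0.40 between Cox10 and Rptor lungs (SE 0.043; limma adjusted p = 4.76e-05) was smaller than that of Sftpc. Rab25, Cldn3 and Elf3, genes of vesicle traffic, tight junctions and epithelial transcription, differed by -0.54, -0.66 and -0.79 between the same lines. The higher value of Cldn3 in Tfam than in Rptor lungs (log2 difference 0.37) was -0.015 after the correction for GC content and length. Of 10 genes of the distal tip, 6 were higher and 2 lower in Tfam than in Rptor lungs, where 28.2% of all genes were higher and 28.2% lower. Sox9, the tip progenitor factor, had 1741, 1789 and 1670 in Rptor, 3468, 3735 and 2844 in Tfam and 1835, 1940 and 1895 in Cox10 lungs, and Cox10 and Rptor lungs did not pass the threshold (log2 difference 0.13, SE 0.082; limma adjusted p = 0.308).

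Genes known to fall as embryonic tissues mature were higher in Cox10 lungs. LIN28 proteins block the maturation of let-7 microRNAs, which in turn repress Hmga2, a chromatin protein of growing embryonic tissue, and the Igf2bp genes. Of 10 genes of this axis, 9 were higher in Cox10 than in Rptor control lungs (median log2 difference 0.51; 10.8% of all genes were higher) and 8 higher than in Tfam control lungs (median 0.52; 29.8% of all genes), with none lower. Without the 3 libraries with Xist and Y-linked reads the numbers were 7 and 6. Hmga2 had 3189, 3656 and 3478 normalised reads in Rptor, 6631, 6376 and 5841 in Tfam and 7375, 8306 and 7596 in Cox10 control lungs, so that the lines did not overlap. Its log2 difference was 1.17 between Cox10 and Rptor lungs (SE 0.067; limma adjusted p = 4.1e-07), 0.87 between Tfam and Rptor lungs (SE 0.067; limma adjusted p = 9.48e-07) and 0.30 between Cox10 and Tfam lungs (SE 0.067; limma adjusted p = 0.00179), the last of which did not pass without the 3 libraries with Xist and Y-linked reads (0.24; limma adjusted p = 0.088) or with all 18 samples (limma adjusted p = 0.21). Lin28b had 112, 77.5 and 115 in Rptor, 97.5, 81.2 and 67.2 in Tfam and 171, 185 and 179 in Cox10 lungs. Rptor and Tfam lungs overlapped and every Cox10 lung was above them (log2 difference from Rptor lungs 0.83, SE 0.18; limma adjusted p = 0.0049). Trim71, a further let-7 target, differed by 0.48 (limma adjusted p = 0.0036). Lin28a was near the limit of detection at 4.88 to 30.7, and its difference of 1.24 from Rptor lungs (limma adjusted p = 0.033) did not pass without any one of the Cox10 control replicates or without Rptor control replicate 3 (limma adjusted p 0.063 to 0.11).

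Red cell genes other than globins were counted next. Of 17, 11 were higher and 1 lower in Tfam than in Rptor lungs, 2 higher and 3 lower in Cox10 than in Rptor lungs, and 1 higher and 8 lower in Cox10 than in Tfam lungs. Over all genes 56.4%, 23.9% and 60.5% were called in these comparisons, so that the count for Cox10 minus Rptor was near that of genes at large. Alas2, the first enzyme of heme synthesis in red cells, had 1510, 1676 and 2063 normalised reads in Rptor, 2536, 1949 and 2452 in Tfam and 877, 776 and 889 in Cox10 control lungs. Slc4a1, the anion exchanger of the red cell membrane, had 580, 657 and 704, then 1703, 1389 and 1316, then 1044, 903 and 963. All Cox10 lungs lay below the others for Alas2, whereas all Rptor lungs lay below the others for Slc4a1.

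**Figure D3:**
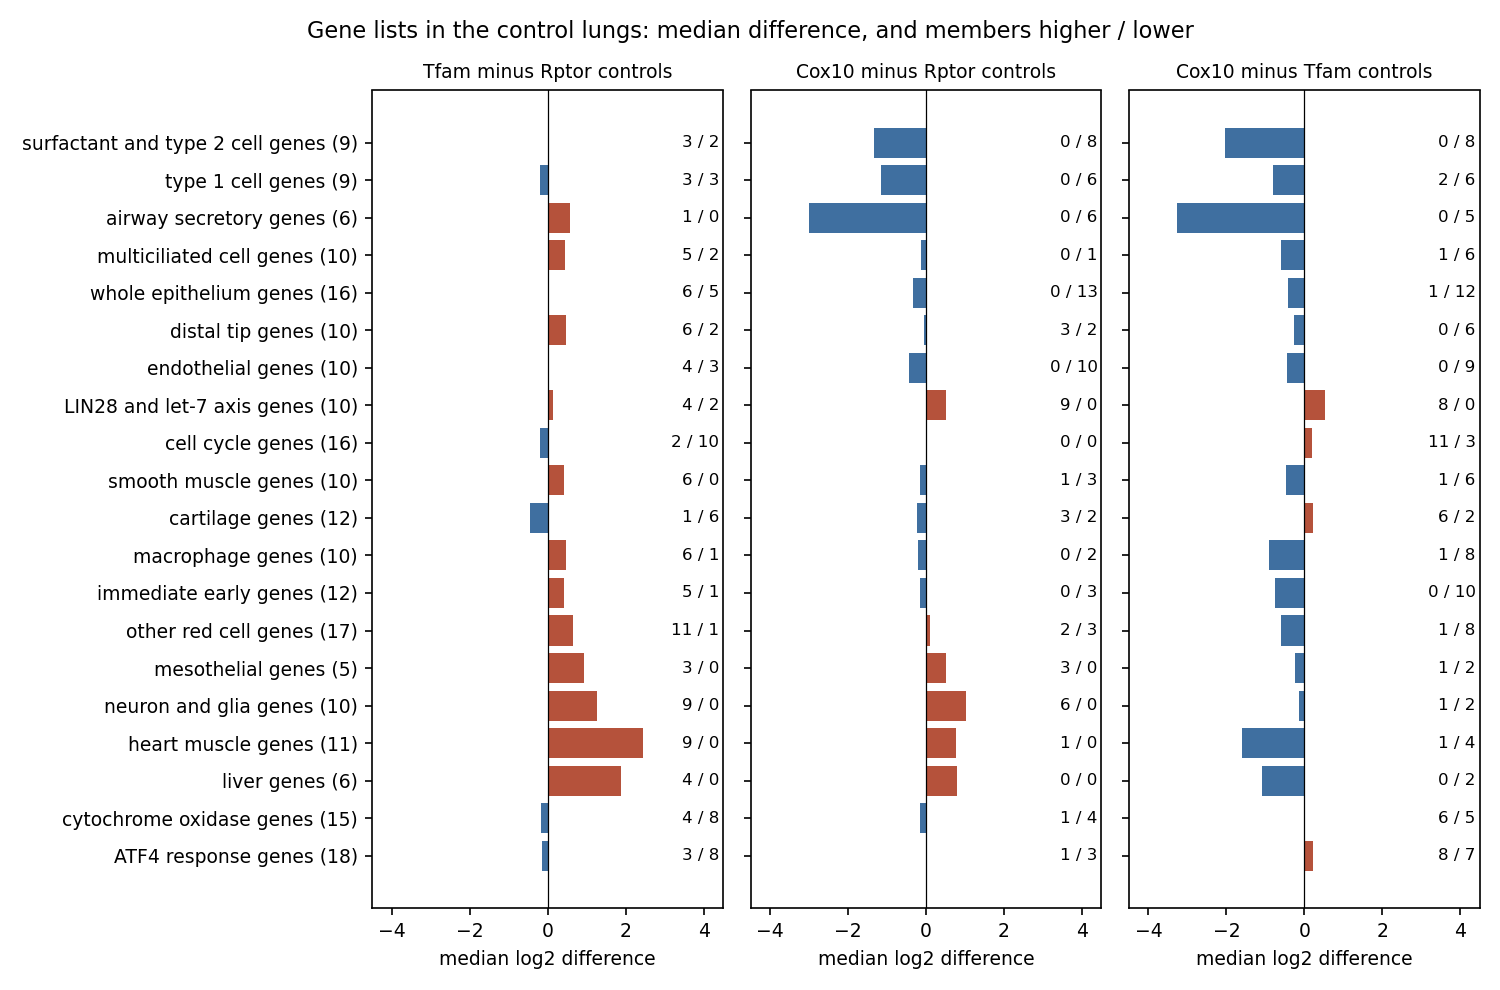
Median log2 difference of 20 gene lists for Tfam minus Rptor, Cox10 minus Rptor and Cox10 minus Tfam control lungs, with the number of genes tested in brackets and the members higher / lower at an adjusted p below 0.05 to the right of each bar. Airway secretory, surfactant and type 1 cell genes have bars to the left for Cox10 lungs against both other lines, and heart muscle genes have the longest bar to the right for Tfam minus Rptor, 2.45.

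Differences in Cox10 lungs were not limited to epithelium and blood. All 10 endothelial genes were lower in Cox10 than in Rptor lungs (median log2 difference -0.43; 13.1% of all genes were lower) and 9 of 10 lower than in Tfam lungs (median -0.45; 30.7% of all genes). After the correction for GC content and gene length 10 and 7 were lower. Cdh5, the cadherin of endothelial junctions, had 8659, 9309 and 8795 normalised reads in Rptor, 13889, 13854 and 12134 in Tfam and 5714, 5806 and 5921 in Cox10 control lungs. Emcn, an endothelial sialomucin, had 1576, 1624 and 1494, then 2142, 2041 and 1839, then 843, 879 and 890. The lines did not overlap for these genes. Cell cycle genes, by contrast, gave no call among 16 between Cox10 and Rptor lungs (limma), where 1 had an unadjusted p below 0.05 and the median log2 difference was -0.0095, and 10 were lower and 2 higher in Tfam than in Rptor lungs, against 28.2% of all genes in each direction. Cdk1, the kinase that starts mitosis, had 5898, 6153 and 6168 in Rptor, 3877, 3715 and 4675 in Tfam and 5254, 5546 and 5332 in Cox10 lungs.

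Markers of tissues next to the lung differed as well, and much of this followed single lungs. The 12 heart muscle genes summed to 1834, 1935 and 5238 normalised reads in Rptor, 7371, 18583 and 12876 in Tfam and 8652, 1527 and 5404 in Cox10 control lungs. Every Tfam lung except replicate 1 was above all others, and replicates differed by several fold within each line. Of 11 tested, 9 were higher in Tfam than in Rptor lungs (median log2 difference 2.45; 28.2% of all genes were higher), and in limma none was called, with 1 at an unadjusted p below 0.05, without the 3 libraries with Xist and Y-linked reads, which leaves a single Tfam lung that is assumed to vary like the other groups. Myh6, the atrial myosin heavy chain, had 214, 295 and 838 in Rptor, 1510, 3871 and 2652 in Tfam and 2317, 124 and 1247 in Cox10 lungs. Its difference between Tfam and Rptor lungs (log2 difference 2.73, SE 0.84; limma adjusted p = 0.0149) did not pass without Rptor control replicate 1 (limma adjusted p = 0.055) or without Tfam control replicate 2 (limma adjusted p = 0.060). The 10 liver genes summed to 132 to 205 in Rptor lungs, to 233, 1570 and 900 in Tfam lungs and to 151 to 410 in Cox10 lungs. Afp, a fetal liver protein, had 80.7, 1000 and 577 in Tfam lungs against 64.7 to 189 in the 6 others, so that replicates 2 and 3 carried the difference, which did not pass without either of them (limma adjusted p 0.065 and 0.056).

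Neuron and glia genes had their lowest sums in Rptor lungs. They summed to 541, 716 and 694 normalised reads in Rptor, 942, 1314 and 1137 in Tfam and 1148, 949 and 1041 in Cox10 control lungs. Of 10, 9 were higher in Tfam and 6 higher in Cox10 than in Rptor lungs (median log2 difference 1.25 and 1.02), against 28.2% and 10.8% of all genes. The first number was 5 without Rptor control replicate 1 or without Tfam control replicate 2, and 2 either with the level of heart muscle genes as a covariate or without the 3 libraries with Xist and Y-linked reads, where the second number was 4. Sox10, a factor of glia, had 24.6, 30.4 and 36.1 in Rptor, 125, 157 and 119 in Tfam and 160, 95.1 and 120 in Cox10 lungs, and passed against both lines. Of 10 macrophage genes, 6 were higher and 1 lower in Tfam than in Rptor lungs, against 28.2% of all genes in each direction, and 8 were lower and 1 higher in Cox10 than in Tfam lungs, against 30.7% and 29.8%. C1qb, a complement subunit, had 447, 325 and 354 in Rptor, 768, 1056 and 840 in Tfam and 448, 302 and 376 in Cox10 lungs. Of 12 immediate early genes, which respond within minutes to handling and signals, 10 were lower in Cox10 than in Tfam lungs, against 30.7% of all genes, and 3 lower than in Rptor lungs, against 13.1%. With the mean level of heart muscle genes as a covariate, 5940, 3600 and 8256 genes passed for Tfam minus Rptor, Cox10 minus Rptor and Cox10 minus Tfam. Sftpc and Scgb3a2 kept their calls in Cox10 lungs in that fit.

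**Figure D4:**
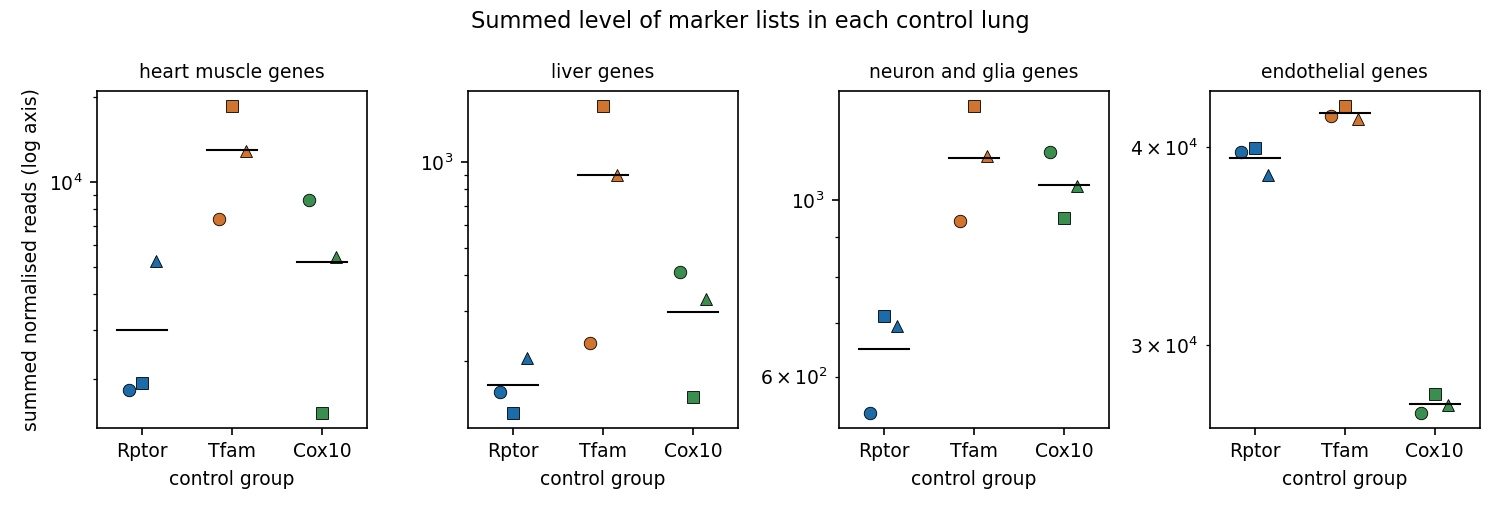
Summed normalised reads (log axis) of the heart muscle, liver, neuron and glia, and endothelial lists in each control lung, with replicates 1, 2 and 3 as circle, square and triangle and the group mean as a line. Heart muscle genes spread from 1527 to 8652 among Cox10 lungs, whereas endothelial genes of the Cox10 lungs lie close together below both other lines.

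The targeted genes differed between the controls, each of which carried a single floxed copy of its own target. Tfam, the factor that packs and transcribes mitochondrial DNA (chr10:71225464-71238280, GRCm38), had 2099, 2175 and 2103 normalised reads in Rptor, 1090, 1095 and 1225 in Tfam and 2208, 2293 and 2209 in Cox10 control lungs. Tfam lungs were lower than Rptor lungs by a log2 difference of -0.90 (SE 0.056; limma adjusted p = 2.42e-07). Cox10, an enzyme of heme a synthesis for cytochrome oxidase (chr11:63962627-64079468), had 756, 775 and 724 in Rptor, 1483, 1559 and 1397 in Tfam and 746, 797 and 813 in Cox10 lungs. It did not differ between Cox10 and Rptor lungs past the threshold (log2 difference 0.06, SE 0.064; limma adjusted p = 0.527) and was higher in Tfam lungs by 0.97 (SE 0.064; limma adjusted p = 3.1e-07). Rptor, the scaffold of mTOR complex 1 (chr11:119602905-119899576), had 2270, 2182 and 2157 in Rptor, 3109, 3076 and 2712 in Tfam and 2742, 2848 and 2829 in Cox10 lungs, lowest in its own line by 0.35 to 0.43 on the log2 scale (limma adjusted p 0.000977 and 5.63e-05). Shh, carried in a single working copy by all (chr5:28456815-28467256), had 1240, 1242 and 1184, then 1011, 926 and 912, then 978, 1090 and 995. Rptor lungs were above the others without overlap, but the difference between Cox10 and Rptor lungs (-0.26; limma adjusted p = 0.0115) did not pass without Cox10 control replicate 1 or 3 (limma adjusted p 0.051 and 0.055).

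Genes next to the targeted loci were counted because a targeted stock carries a stretch of its donor's chromosome. Among the 100 tested genes nearest to Rptor, 50 on either side, 9 (9.0%) stood apart in Rptor lungs, against 8.96% over all genes. Near Tfam 46 of 100 stood apart in Tfam lungs (46.0%, against 43.9%), and near Cox10 19 of 100 in Cox10 lungs (19.0%, against 14.9%). These shares were near those of all genes. For the 20 genes on either side they were 7.5%, 45% and 20%.

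The genes with the largest difference from both other lines were then taken for each line. In Rptor lungs the 5 lower genes were Htatip2, A230057D06Rik, Car12, Nkx6-1 and Sox10, and the 5 higher genes were H2-T10, Nell1, Gm5506, Ptpn5 and Cbr3. Htatip2, an oxidoreductase gene, had 6.90, 9.80 and 6.83 normalised reads in Rptor, 113, 127 and 130 in Tfam and 183, 191 and 189 in Cox10 control lungs. Ptpn5, a protein tyrosine phosphatase, had 1029, 1154 and 1252, then 312, 346 and 298, then 113, 96.1 and 110. Nell1, a secreted protein, had 347, 316 and 247, then 49.3, 51.0 and 65.1, then 70.8, 45.6 and 53.2. Only genes whose Rptor values lay outside those of all other lungs were taken, so the lack of overlap follows from the choice. Tfam and Cox10 lungs overlapped for Nell1. Of the 10 genes 4, namely Ptpn5, Htatip2, Nell1 and A230057D06Rik, lie on chromosome 7 between 47.1 and 61.9 Mb (GRCm38). In this span, which was drawn around them after their values were seen, 11 of 27 tested genes (40.7%) stood apart in Rptor lungs, a share that the choice of the span raises. Without the 4 genes it was 7 of 23 (30.4%), against 8.96% over all genes. H2-T10 is a class I histocompatibility gene with near-identical neighbours and Gm5506 a copy of an enolase gene, so that their reads may be divided among copies. Gm5506 had 284, 2304 and 2257 in Rptor lungs against at most 248.6 in the others, and it did not pass against Cox10 lungs without Rptor control replicate 2 or 3 (limma adjusted p 0.063 and 0.054).

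In Tfam lungs the 5 higher genes were Cox6a2, Hspb7, LOC100504703, Hist1h2ag and Xirp1, and the 5 lower were A2m, C030030A07Rik, Rpl22l1, Hnrnpa1 and G530011O06Rik. Cox6a2, Hspb7 and Xirp1 are genes of heart and skeletal muscle and were highest in Tfam control replicate 2. Hspb7 had 247, 953 and 590 in these lungs, and its log2 difference from Rptor lungs was 2.78, or 1.71 with Tfam control replicate 1 as the only Tfam lung (without the 3 libraries with Xist and Y-linked reads). Those of Xirp1 and Cox6a2 were 3.12 and 4.44, or 2.63 and 3.81 in that fit, where none of the 3 genes passed. Among the lower genes, Rpl22l1, a ribosomal protein paralogue, had 3019, 3660 and 4000 normalised reads in Rptor, 733, 760 and 1051 in Tfam and 3231, 3636 and 3485 in Cox10 lungs. Hnrnpa1, a splicing factor with many processed copies in the genome, had 1507, 1761 and 1383, then 377, 326 and 517, then 1976, 1926 and 2035. A2m, a protease inhibitor of plasma, had 704, 684 and 350, then 80.7, 101 and 98.2, then 458, 503 and 449.

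In Cox10 lungs the 5 lower genes were Cyp2f2, Clec3b, Cbr2, Aspn and Scgb3a2, of which 3 are the airway secretory genes described above. Clec3b, the plasma and matrix protein tetranectin, had 197, 337 and 313 normalised reads in Rptor, 102, 106 and 157 in Tfam and 5.90, 9.90 and 3.94 in Cox10 control lungs, a log2 difference of -5.26 from Rptor lungs (SE 0.30; limma adjusted p = 3.74e-07). Aspn, a small matrix proteoglycan, had 161, 251 and 237, then 360, 398 and 344, then 39.3, 23.8 and 18.7. The 5 higher genes were 2410018L13Rik, Rec8, LOC100861615, St8sia1 and H2-Q2. Rec8, a cohesin subunit best known from meiosis, had 81.8, 131 and 212 in Rptor, 113, 55.2 and 77.5 in Tfam and 549, 448 and 465 in Cox10 lungs. LOC100861615 did not pass against Rptor lungs in 4 of the 9 fits without a library (limma adjusted p 0.053 to 0.063, without Cox10 control replicate 1 or 2 or Rptor control replicate 2 or 3). Of 7 genes known to vary between mouse strains, 1 was higher and 4 lower in Tfam than in Rptor lungs, 2 lower in Cox10 than in Rptor lungs, and 3 higher and 3 lower in Cox10 than in Tfam lungs. The shares of all genes called were 56.4%, 23.9% and 60.5%, so that 2 of 7 for Cox10 minus Rptor was near that of genes at large. Whether strain background plays a part was not tested. Entpd4, an apyrase gene, had the one higher value in Tfam than in Rptor lungs (log2 difference 2.28; limma adjusted p = 0.000463), and Ifi202b, an interferon-induced gene, was at 18.9 to 38.5 in Tfam lungs, at 0 to 0.99 in Cox10 lungs and at 47.3, 0.98 and 0.976 in Rptor lungs. Nnt, a mitochondrial transhydrogenase, had 2693, 2792 and 2257 in Rptor, 1652, 1622 and 1457 in Tfam and 1815, 1996 and 1897 in Cox10 lungs, highest in Rptor lungs without overlap.

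Finally, the same comparison of lines was made in the 9 deficient lungs, which share no sample with the controls but share line, background and any batch of a line. Between deficient lungs 7124 genes differed for Tfam minus Rptor (46.8%), 3534 for Cox10 minus Rptor (23.2%) and 7111 for Cox10 minus Tfam (46.8%). Of the control differences between Cox10 and Tfam lungs 6496 were called again with the same sign, 70.6% of the calls in controls and 91.4% of those in deficient lungs, and 3 were called with the opposite sign. For Tfam minus Rptor the shared calls were 5117 (59.7% and 71.8%) and 161 were opposite. For Cox10 minus Rptor they were 1248 (34.3% and 35.3%) and 132 were opposite. Across genes, which are not independent replicates, the log2 differences had a Pearson r of 0.70 for Tfam minus Rptor, 0.50 for Cox10 minus Rptor and 0.88 for Cox10 minus Tfam. In deficient lungs each line also carried the effect of deleting both copies of its target in the epithelium. In the controls only the single floxed copy could be deleted there.

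Cox10 deficient replicate 3 stood apart from the 2 other Cox10 deficient lungs. Its Sftpc was 4071 normalised reads against 385 and 554, its Beta-s 15965 against 5179 and 3960, its Scgb3a2 103 against 27.9 and 25.8 and its Hmga2 3240 against 6763 and 8102. Without it the shared calls for Cox10 minus Rptor were 1907 of 5139 calls in deficient lungs, with an r of 0.56, and those for Cox10 minus Tfam were 6948. The ratio of later to embryonic globins was 0.305, 1.19 and 0.817 in Rptor, 0.226, 0.222 and 0.259 in Tfam and 0.103, 0.0847 and 0.595 in Cox10 deficient lungs. The first 2 Cox10 deficient lungs were below all other deficient lungs, as the Cox10 control lungs were among controls, and the third was not.

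The epithelial markers repeated part of the pattern of the controls. Sftpc had 1364, 3963 and 5003 normalised reads in Rptor deficient and 3178, 4675 and 5514 in Tfam deficient lungs. Its log2 difference of Cox10 from Rptor deficient lungs was -1.65 and was not called (limma adjusted p = 0.137), and it was -2.70 (limma adjusted p = 0.00147) without Cox10 deficient replicate 3. Its difference of Cox10 from Tfam deficient lungs was called, at -2.18 (limma adjusted p = 0.035), or -3.23 without that replicate (limma adjusted p = 0.000243). Scgb3a2 had 5.99, 27.9 and 2.94 in Rptor deficient and 129.6, 107.9 and 118.6 in Tfam deficient lungs. It turned sign, being higher in Cox10 than in Rptor deficient lungs by 2.22 (limma adjusted p = 0.0394), or by 1.58 and not called without Cox10 deficient replicate 3 (limma adjusted p = 0.0813). Its difference of Cox10 from Tfam deficient lungs was -1.47 and not called (limma adjusted p = 0.10), or -2.10 and called without that replicate (limma adjusted p = 0.0188). Among the targeted genes, Tfam was again lower in Tfam than in Rptor deficient lungs, with 974, 1028 and 1157 in Tfam deficient lungs (log2 difference -0.89; limma adjusted p = 3.2e-05). Cox10 was again higher there, at 1469, 1464 and 1332, but it was also higher in Cox10 than in Rptor deficient lungs (806.8, 816.8 and 741 against 569, 615 and 587; log2 difference 0.42, limma adjusted p = 0.00477), which was not called between the controls.

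**Figure D5:**
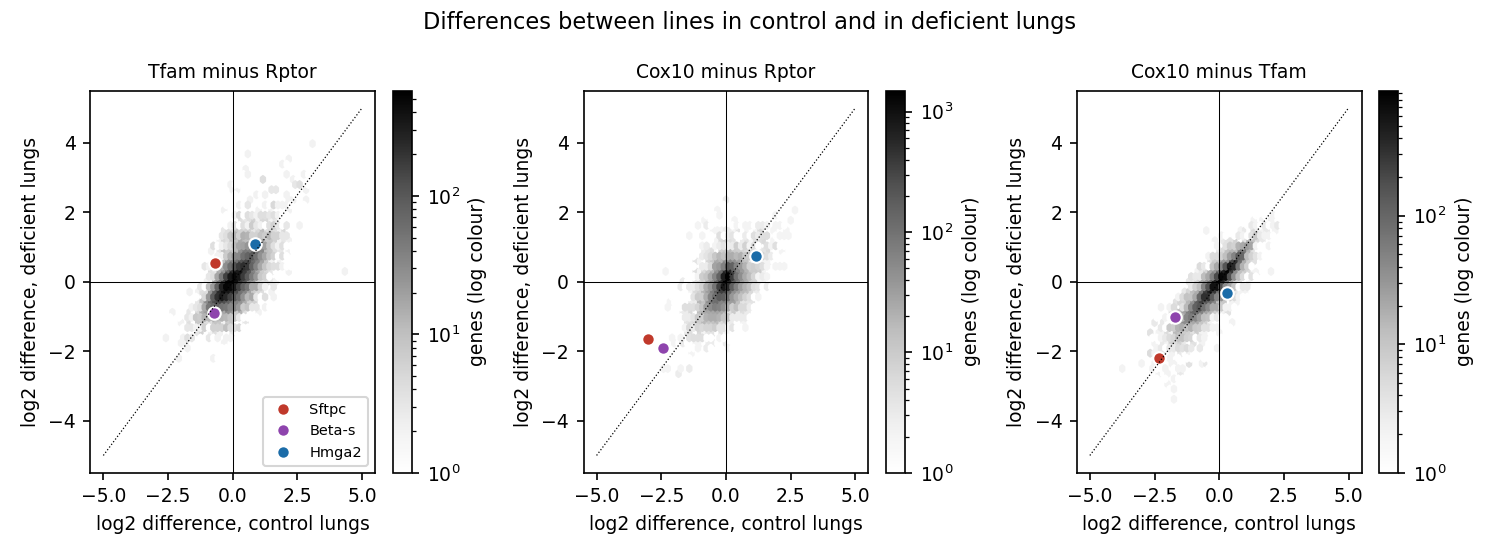
Log2 difference between lines in deficient lungs (vertical axis) against that in control lungs (horizontal axis) for each tested gene, as hexagons shaded by the number of genes on a log colour scale, with the dotted line at equal values and differences beyond 5 drawn at 5. Cox10 minus Tfam lies closest to the line (r = 0.88), and Sftpc, Beta-s and Hmga2 are marked.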

How the data were processed

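RNA-seq of whole lungs of mouse embryos at 14.5 dpc was analysed from 3 deposited tables, 1 for each line. The authors deposited for every sample a normalised signal, that is, reads per gene scaled by size factors set within each table. Per the files' values, all were whole multiples, within a tolerance of 0.05, of a step of 0.978 to 1.02 over the 18 samples. The submitters' processing notes name Trim Galore, HISAT2, featureCounts, DESeq2 and build mm10, without versions. The tables also hold the authors' own fold changes and p-values, which were not used. Each table had 23420 rows, of which 27 held symbols turned into dates and 4 duplicates of these were dropped.

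The 9 control columns were each rescaled to the mean total of 29002283. Genes with a value of at least 10 in at least 3 of the 9 libraries were tested on log2(value + 1), which understates the change of low genes. One limma fit with the group as the only term (limma 3.58.1, R 4.3.3, lmFit and eBayes with trend) gave an F test and 3 pairwise contrasts, adjusted by the Benjamini-Hochberg method over 15207 genes, two-sided, with a threshold of 0.05. Single measures were compared by exact permutation tests (scipy). No count test was run on the normalised values. The fit was tested on simulated data. The 9 deficient lungs were fitted separately in the same way on the same genes. Positions came from GENCODE M21 on GRCm38 for 98.9% of tested genes.

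The members were fixed by their labels, but this part of the study, the gene lists and the tests were chosen with earlier results of these data known. Named genes were the globins, Sftpc, Scgb3a2, the targeted genes, up to 4 members of each list with the largest difference, and for each line the 5 higher and 5 lower genes with the largest difference from both other lines, a mean of at least 50 over the 9 lungs and values outside those of all other lungs. Sex-linked genes were left out of that ranking. Further list members were named as examples after their values were seen. Genes at a few reads are limited by depth. Same-numbered lungs of different lines deviated from their group means with correlations of -0.17 to 0.18, against -0.28 to 0.31 for other numbers, so the numbers do not pair the samples.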

Additional observations from a re-analysis of the deposited data

How the results depend on the processing

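The 4 counts of genes that differed (any group, Tfam minus Rptor, Cox10 minus Rptor and Cox10 minus Tfam) stayed within 1.5 times the reported numbers under the trimmed mean of M-values, median of ratios, values as deposited, totals without globins, other filters, other pseudocounts, all 18 samples, Xist as a covariate and the settings added after seeing the data (GC content and length, heart muscle level, without the 3 libraries with Xist and Y-linked reads). With an added log2 difference of at least 1 they were 1731, 934, 545 and 1201, and Cox10 minus Rptor was 1964 at an adjusted p below 0.01. When a library was left out the 4 counts ranged from 9449 to 10416, 7368 to 8642, 2399 to 4213 and 8225 to 9279. With the replicate number as a block, which does not pair the samples, they were 10295, 8455, 3459 and 9094. The planned count tests in edgeR and DESeq2 were not run on the normalised values. Reads obtained by dividing by the step of each library were used for the chi-square alone. An Hba-only globin ratio could not be computed because the adult alpha globins were listed at 0 or 1.

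Sftpc, Tfam minus Rptor, did not pass with all 18 samples (-0.70). Scgb3a2, Tfam minus Rptor, never passed and was 0.23 with the GC and length correction and -0.25 to 0.016 when a library was left out. Lower airway secretory genes numbered 3 in Cox10 lungs against each line at a mean of at least 50. Higher heart muscle genes, Tfam minus Rptor, numbered 0 with the heart muscle covariate and without the 3 libraries (limma, 3 and 1 at an unadjusted p below 0.05). The covariate is the mean of these same genes, so their loss in that fit, and that of Myh6, follows from its construction and tests nothing. Higher neuron and glia genes, Tfam minus Rptor, numbered 2 under both, 5 at a mean of at least 50 and 5 to 9 when a library was left out. Called differences that turned sign were Cldn3 (-0.015, GC correction), Acan (-0.18), Myh6 (-0.13) and Alb (-0.10) with the heart muscle covariate, all Tfam minus Rptor, and Apoa1 (0.22, Cox10 minus Tfam, without the 3 libraries). Recurrence for Cox10 minus Rptor was 1907 without Cox10 deficient replicate 3. Over 322 differences of named genes, 219 kept direction and call under all 23 settings.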

Other observations

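The counts of further lists stand against the shares of all genes, which were 56.4% called for Tfam minus Rptor (28.2% in each direction), 23.9% for Cox10 minus Rptor (10.8% higher, 13.1% lower) and 60.5% for Cox10 minus Tfam (29.8% higher, 30.7% lower). Of 10 smooth muscle genes, 6 were higher and none lower in Tfam than in Rptor lungs, 1 was higher and 3 lower in Cox10 than in Rptor lungs, and 6 were lower and 1 higher in Cox10 than in Tfam lungs, and Acta2, smooth muscle actin, differed by 0.46, -0.58 and -1.04 on the log2 scale for Tfam minus Rptor, Cox10 minus Rptor and Cox10 minus Tfam. Of 12 cartilage genes, 6 were lower and 1 higher in Tfam than in Rptor lungs, and 3 were higher and 2 lower in Cox10 than in Rptor lungs. Of 5 tested mesothelial genes, 3 were higher in Tfam and 3 higher in Cox10 than in Rptor lungs, and Wt1, a mesothelial transcription factor, differed by 1.02 and 0.79. Of 10 multiciliated cell genes, 5 were higher and 2 lower in Tfam than in Rptor lungs, against 1 lower in Cox10 than in Rptor lungs.

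Among metabolic genes, 8 of 15 cytochrome oxidase genes were lower and 4 higher in Tfam than in Rptor lungs, and 4 were lower and 1 higher in Cox10 than in Rptor lungs. Of 18 genes of the ATF4 response, which is switched on by amino acid and mitochondrial stress, 8 were lower and 3 higher in Tfam than in Rptor lungs. Psph, an enzyme of serine synthesis, differed by -1.18, and Atf5, a stress-response factor, had 897, 969 and 950 normalised reads in Rptor, 2010, 2461 and 2280 in Tfam and 942, 940 and 1006 in Cox10 control lungs. These controls carried a working copy of every targeted gene.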
